A study of Mus musculus with 8 samples.

Results

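Protein synthesis needs a large cast of soluble proteins besides the ribosome, and the transcripts that encode them were followed here in B16F10, a mouse melanoma cell line. The set was defined by gene symbols, with earlier results of these data known. It holds the eukaryotic initiation factors (symbols beginning Eif1 to Eif6, without the Eif2ak kinases and pseudogene names), the elongation factors (Eef1 and Eef2), the aminoacyl-tRNA synthetases except Wars, and 5 genes of termination and ribosome rescue (Etf1, Gspt1, Abce1, Pelo and Hbs1l). It came to 102 of the 45556 named genes in the deposited table. Of these, 98 passed the filter on low counts and were tested among 13500 genes. The 4 that did not were Eef1a2, Eif2s3y, Eif4e1b and Eif4ebp3, with at most 9 counts in any library. GENCODE annotates 101 of the 102 as protein coding. The exception is Eif2c5, a long intergenic non-coding RNA on chromosome X whose older symbol carries the argonaute name, so its label does not describe an initiation factor and its values are given apart.

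Each library was made from the bulk RNA of B16F10 cells carrying either the empty lentiviral vector pLKO or a short hairpin against Drg2 (shDRG2), left without treatment or given recombinant mouse interferon-γ (IFN-γ) at 5 ng/ml for 24 h. There were 2 libraries in each of the 4 groups, and the comparisons asked what the hairpin and the cytokine each did to these transcripts. The control carried an empty vector, and the labels name a single line of each kind, so an effect of the hairpin and a difference between derived lines cannot be told apart. No label says that 2 libraries of a group came from separate cultures, and p-values therefore measure the spread between these libraries, which may be technical. DRG2 is a developmentally regulated GTP-binding protein whose binding partner is the product of Rwdd1. In bulk RNA, fewer cells with a transcript and less of it per cell cannot be told apart.

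Values are given in CPM, the count scaled to a common library size after trimmed-mean normalisation. Drg2 itself was at 76.3 and 68.6 CPM in untreated pLKO cells, 72.3 and 64.3 in pLKO cells with IFN-γ, 8.68 and 9.34 in untreated shDRG2 cells, and 6.46 and 7.66 in shDRG2 cells with IFN-γ. It was 8.06-fold lower in shDRG2 than in pLKO cells without treatment and 9.63-fold lower with IFN-γ (edgeR, adjusted p = 1.53e-06 and 7.80e-07), so the knockdown was present in every library labelled with it. Library totals ran from 25422758 to 36654519 estimated counts. All 8 melanocyte markers exceeded 1 CPM, with summed levels of 9701 to 15213 CPM. None of 7 leukocyte and none of 6 epithelial markers did, and Cd3e, Itgam, Adgre1, Epcam and Krt18 were at 0 in all 8 libraries. Of the fibroblast and endothelial markers only Col1a2 and Vwf exceeded 1 CPM, with summed levels of 4.2 to 19.5 and 0.457 to 5.97 CPM.

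Translation begins when eIF2 brings the initiator tRNA to the small ribosomal subunit, with eIF1, eIF1A and eIF5 guarding the choice of start codon and eIF3 acting as the scaffold. The cap-binding protein eIF4E, the scaffold eIF4G and the helicase eIF4A load the mRNA, and the 4E-BP proteins block that step by holding eIF4E. Elongation factors eEF1A and eEF2 then drive the ribosome along the message, and the synthetases charge each tRNA with its amino acid. Phosphorylation of eIF2α slows initiation in general while it favours translation of the transcription factor ATF4, whose known targets include many synthetase genes.

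The genes spanned a wide range of transcript level. Per kilobase of exon, averaged over the 8 libraries, Eef1a1, which encodes the factor that delivers charged tRNA, stood first at 2950 CPM per kilobase and Eef2, the translocase, second at 900. Next came Eif5a (355), which helps ribosomes through difficult peptide bonds, the eEF1B exchange-complex genes Eef1g (229) and Eef1b2 (198), Eif4g2 (194), Eif3c (176), Eif4g1 (175), Eif3b (170) and the glycyl-tRNA synthetase gene Gars (149). The lowest was Pars2, the mitochondrial prolyl-tRNA synthetase gene, at 1.24. Median levels per kilobase were 114 CPM for elongation genes, 51.4 for eIF3, 43.4 for the eIF4 group, 35.2 for cytosolic synthetases and 3.93 for mitochondrial synthetases. The most abundant mitochondrial synthetase transcript, Iars2 at 17.6, was still above the least abundant cytosolic one, Farsa at 13.6. The 102 genes together held 3.06% to 3.35% of all counts in a library, and Eef1a1 alone took 21.6% to 24.8% of their counts. In each of the 4 groups replicate 1 gave the set a larger share of counts than replicate 2.

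**Figure D1:**
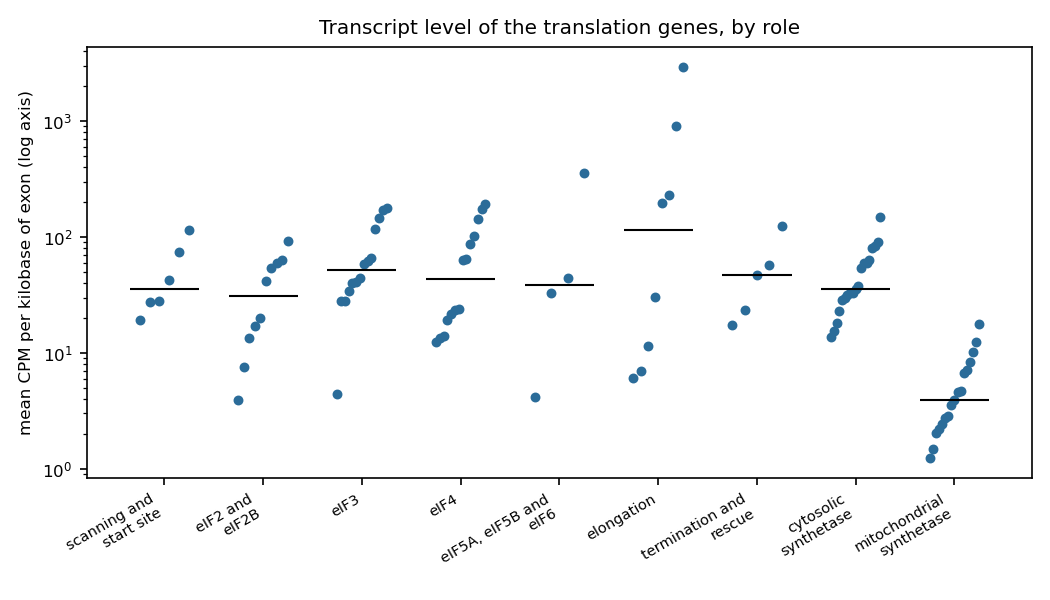
Mean level of each tested gene over the 8 libraries, in CPM per kilobase of exon on a log axis, with genes grouped by role, lines for group medians and Eif2c5 left out. Eef1a1 and Eef2 stand above every other gene at 2950 and 900, and the mitochondrial synthetases sit lowest, down to 1.24 for Pars2.

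With IFN-γ, 12 of the 19 cytosolic synthetase genes in the set rose in pLKO cells and 14 in shDRG2 cells. Most core initiation and elongation factors did not pass the test. In pLKO cells 25 of the 98 genes changed, 18 higher and 7 lower, which is 25.5% against 28.1% of all genes tested. By direction, the background was 15.4% of genes higher and 12.7% lower. In shDRG2 cells 32 changed, 23 higher and 9 lower, against 31.4% of all genes, 16.2% higher and 15.2% lower. The share called was thus near the background in both lines, and the calls were spread unevenly over the roles. None of the 19 cytosolic synthetases fell in either line, and they had median log2 fold changes of 0.32 and 0.42 against 0.01 and 0.00 over all genes tested. All 19 had a positive log2 fold change in both lines, against 50.8% of all genes tested in pLKO and 50.4% in shDRG2. Among the other roles the largest count in 1 direction was 4 of the 6 genes grouped by symbol as start-site factors, lower in shDRG2 cells.

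The counts depended on single libraries. Counts over all genes tested also fell in the omissions given here, so this dependence is not shown to be particular to the set. Leaving out replicate 2 of untreated pLKO cells left 14 calls in pLKO (10 higher, 4 lower). Leaving out replicate 1 of IFN-γ-treated shDRG2 cells left 19 in that line (13 higher, 6 lower), of which 9 were cytosolic synthetases, and leaving out replicate 2 of untreated shDRG2 cells left 15 rises. Without replicate 2 of IFN-γ-treated shDRG2 cells, 5 genes were called lower, 1 of which was Eef1a2, which is not among the 98. The pLKO calls of Aars, Cars, Dars, Eprs and Nars were each lost without at least 1 of the 4 pLKO libraries, and in shDRG2 those of Aars, Nars and Qars without replicate 1 of treated cells.

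The 2 lines share no library, so their lists can be set side by side, although 1 fit gave both the same estimate of the spread. The genes that rose in both numbered 17, which is 94.4% of the pLKO list and 73.9% of the shDRG2 list: Aars, Cars, Dars, Eprs, Gars, Kars, Lars, Nars, Qars, Rars, Tars and Yars among cytosolic synthetases, the mitochondrial Rars2 and Tars2, and Eif3e, Eif3k and Eif4e3. All 7 that fell in pLKO also fell in shDRG2, 77.8% of the longer list: Eef2k, Eif1b, Eif2c5, Eif4ebp2, Eif4g3, Eif5 and Eif5a2. Across the 98 genes the responses of the 2 lines had a Pearson correlation of 0.966, given as a description over genes that share libraries within each line. The same overlap and correlation over all genes tested were not computed, so neither is shown to be particular to this set.

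**Figure D2:**
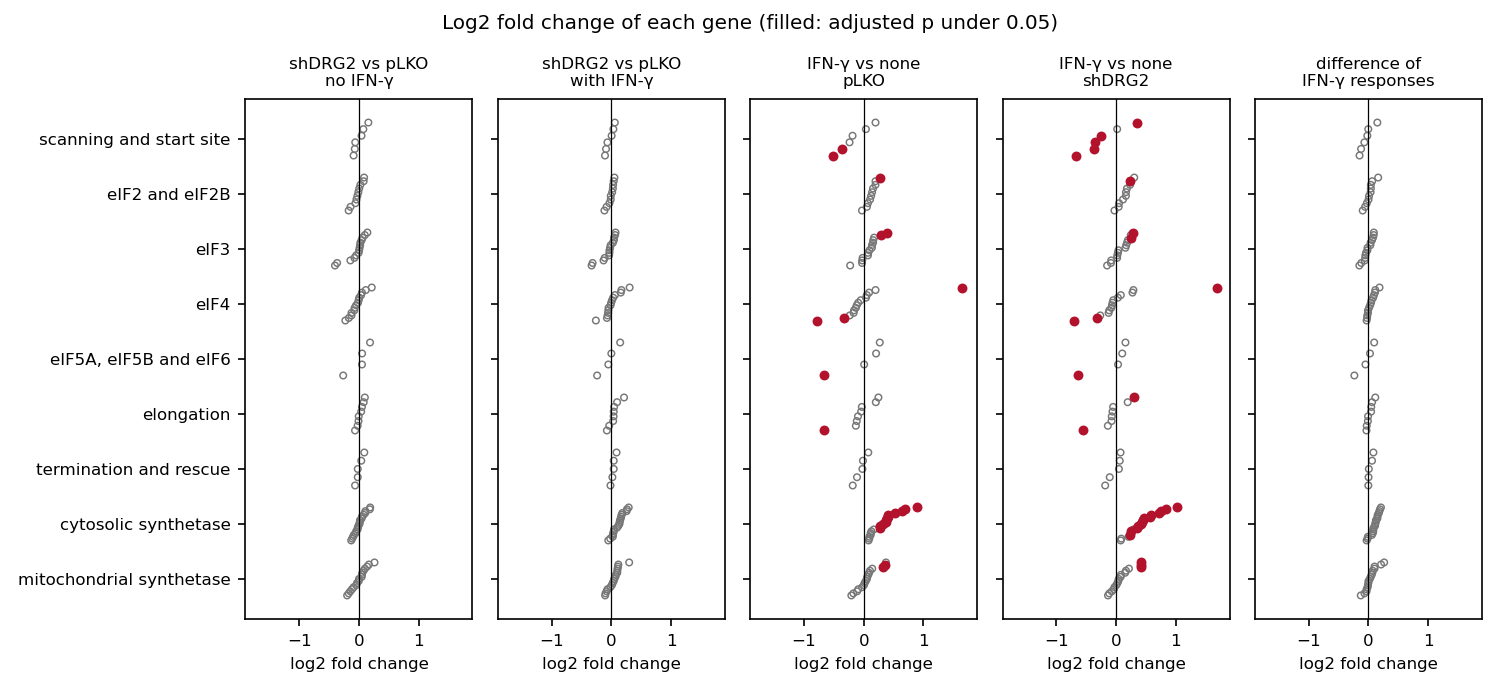
Log2 fold change of each tested gene by role in the 5 comparisons, 1 panel each, with Eif2c5 left out and filled points for genes past the test. The cytosolic synthetases lie to the right of 0 in both IFN-γ panels, Eif4e3 is the farthest point at 1.65 and 1.69, and the knockdown panels stay between −0.40 and 0.31.

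The largest rise among the synthetases of the set, which leaves out Wars, was that of Kars. It encodes the lysyl-tRNA synthetase (chr8:111993443-112011323 in GRCm38, minus strand). Kars was at 284 and 266 CPM in untreated pLKO cells and at 532 and 490 with IFN-γ, and at 278 and 277 in untreated shDRG2 cells against 580 and 544 with IFN-γ. Every treated library was above every untreated one. The fold was 1.86 in pLKO (log2 0.89, SE 0.0798, adjusted p = 1.64e-05) and 2.02 in shDRG2 (log2 1.02, SE 0.0800, adjusted p = 5.16e-06). Lars, for leucine, went from 120 and 119 to 190 and 182 CPM in pLKO and from 126 and 110 to 223 and 200 in shDRG2, which is 1.55-fold and 1.79-fold (adjusted p = 0.000387 and 4.59e-05). Yars, for tyrosine, went from 68.9 and 66.7 to 114 and 106 CPM and from 77.8 and 65.3 to 124 and 117, which is 1.62-fold and 1.69-fold (adjusted p = 0.000307 and 0.000153). Treated and untreated libraries of Lars and Yars did not overlap in either line.

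Gars, for glycine, was at 387 and 358 CPM in untreated pLKO cells against 556 and 516 with IFN-γ, and at 393 and 328 against 630 and 556 in shDRG2 cells (1.44-fold and 1.65-fold, adjusted p = 0.0038 and 0.000467). The Gars transcript makes both the cytosolic and the mitochondrial glycyl enzyme, and Kars likewise serves both compartments. Tars, for threonine, rose from 136 and 144 to 179 and 192 CPM in pLKO and from 138 and 143 to 212 and 203 in shDRG2 (1.33-fold and 1.48-fold, adjusted p = 0.00227 and 0.000263). Eprs, whose product joins glutamate and proline charging in 1 chain and also belongs to the IFN-γ-activated GAIT complex that represses translation of inflammatory messages, went from 541 and 514 to 652 and 668 CPM in pLKO and from 496 and 498 to 711 and 632 in shDRG2. That is a rise of 0.32 on the log2 scale in pLKO and 0.43 in shDRG2 (adjusted p = 0.0133 and 0.00227). Aars, for alanine, was at 477 and 472 CPM against 630 and 597 in pLKO and at 570 and 506 against 788 and 684 in shDRG2 (log2 0.37 and 0.45, adjusted p = 0.0136 and 0.00423). Treated and untreated libraries of Gars, Tars, Eprs and Aars stayed apart in both lines, and 14.3% of the exon bases of Aars overlap Exosc6 on the same strand.

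A further 5 cytosolic synthetases rose in both lines. Their log2 fold changes in pLKO and shDRG2 were 0.40 and 0.59 for Cars (cysteine), 0.39 and 0.47 for Rars (arginine), 0.38 and 0.37 for Qars (glutamine), 0.27 and 0.42 for Dars (aspartate) and 0.27 and 0.35 for Nars (asparagine). Farsa and Farsb, the paired subunits of the phenylalanyl enzyme, passed the test in shDRG2 only, at 0.25 and 0.24 (adjusted p = 0.0288 and 0.0462, the Farsb call lost in 7 alternatives), while their pLKO values were 0.13 and 0.08. The 5 that passed in neither line were Hars, Iars, Mars, Sars and Vars. Sars, for serine, was the lowest of the 19 in shDRG2 cells, with log2 fold changes of 0.09 and 0.08 (adjusted p = 0.545 and 0.601). Grouped after their values were seen, the 8 catalytic members of the multisynthetase complex (Dars, Eprs, Iars, Kars, Lars, Mars, Qars and Rars) held 6 rises in either line, with medians of 0.35 and 0.43. The other 11 held 6 and 8, with medians of 0.27 and 0.35.

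**Figure D3:**
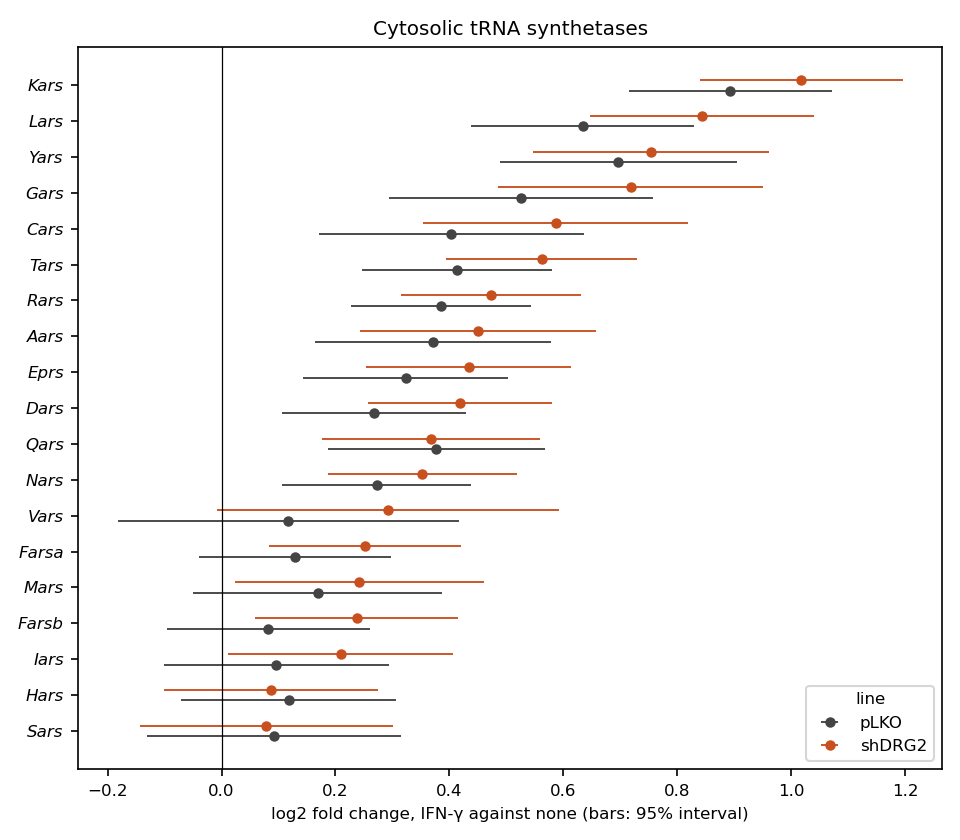
Log2 fold change of the 19 cytosolic synthetases with IFN-γ, pLKO in grey and shDRG2 in orange, with bars for the 95% interval. All points lie above 0, from 0.08 to 1.02, and the 2 intervals of each gene overlap.

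Promoter sequence was examined because the synthetases moved together. RefSeq stretches from 250 bases before to 50 after the annotated start (GRCm38.p6) were matched for 77 of the 102 genes and searched on both strands for 3 motifs chosen with the results known. The ATF4 composite element, TGATGNAA, was found in 5 of 12 cytosolic synthetases (Aars, Gars, Iars, Tars and Yars) and in 0 of 14 mitochondrial ones, against 4.51% of all 27025 genes with a promoter entry and 2.66% of the 9429 tested ones. Over all matched members it was in 7 of 77, the other two being Eef2k, which fell in both lines, and Eif2s3x, which was called in neither (log2 0.05 and 0.12). The interferon-stimulated response element, searched as TTTC repeated after a gap of 2 bases, was found in 4 of the 77 genes (Eif2s1, Eif2s3x, Eif3a and Qars) against 3.99% of all and 3.74% of tested genes, and the E-box CACGTG in 17 against 8.09% and 11.98%. A match is a description of these letters and not of a bound site. The following stretches of 150 bases end 25 bases after the start and run 5′ to 3′ on the gene's strand, and capitals mark the ATF4 composite element. They are shown because these are the synthetase promoters that hold the element.
Aars: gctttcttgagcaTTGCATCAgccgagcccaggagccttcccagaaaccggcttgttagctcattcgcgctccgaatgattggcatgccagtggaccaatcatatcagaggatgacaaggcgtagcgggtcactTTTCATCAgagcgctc
Gars: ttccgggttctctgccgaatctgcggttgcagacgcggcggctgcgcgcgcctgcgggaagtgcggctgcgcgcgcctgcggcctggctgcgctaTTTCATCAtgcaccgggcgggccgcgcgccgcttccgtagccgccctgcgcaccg
Iars: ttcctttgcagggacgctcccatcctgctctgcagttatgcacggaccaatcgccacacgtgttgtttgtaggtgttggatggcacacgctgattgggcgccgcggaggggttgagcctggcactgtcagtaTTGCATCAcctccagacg
Tars: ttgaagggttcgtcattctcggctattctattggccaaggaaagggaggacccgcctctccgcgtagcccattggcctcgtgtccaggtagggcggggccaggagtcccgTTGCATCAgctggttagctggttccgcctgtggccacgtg
Yars: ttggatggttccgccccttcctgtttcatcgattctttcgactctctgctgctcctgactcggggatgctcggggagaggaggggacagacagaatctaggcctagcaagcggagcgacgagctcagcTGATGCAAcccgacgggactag
The stretches lie at chr8:111033717-111033866 (plus strand) for Aars, chr6:55037876-55038025 (plus) for Gars, chr13:49682005-49682154 (plus) for Iars, chr15:11399634-11399783 (minus) for Tars and chr4:129189778-129189927 (plus) for Yars. The Aars stretch held 2 matches and each of the others 1. Carrying the element did not go with a call in every case: Iars held it and had log2 fold changes of 0.10 and 0.21 (adjusted p = 0.475 and 0.102). The 4 other synthetases with the element, Aars, Gars, Tars and Yars, rose in both lines. They were the only carriers among the 16 genes that rose in shDRG2 and had a promoter entry, against 2.66% of tested genes. Genes without an entry and bases outside the searched stretch were not examined. A role of ATF4 in these rises was not tested.

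The synthetases of the mitochondrion, a separate nuclear-encoded set that serves the organelle's own ribosomes, moved less. Of 17 tested, 2 rose in pLKO and 3 in shDRG2 and none fell, with median log2 fold changes of 0.05 and 0.04. The pLKO median was −0.01 without replicate 1 and 0.11 without replicate 2 of treated pLKO cells, and the shDRG2 median 0.11 without replicate 1 and 0.02 without replicate 2 of untreated shDRG2 cells. Tars2 rose by 0.36 and 0.42 (adjusted p = 0.00696 and 0.00227) and Rars2 by 0.32 and 0.42 (adjusted p = 0.0132 and 0.00256). Fars2 passed in shDRG2 only, at 0.41 (adjusted p = 0.0488), beside 0.37 in pLKO (adjusted p = 0.0803). The shDRG2 call was lost in 7 alternatives and the pLKO value was called in 3. Lars2, the mitochondrial counterpart of Lars, was at 118 and 91.0 CPM without and 130 and 94.6 with IFN-γ in pLKO, and at 137 and 97.7 against 129 and 112 in shDRG2. Its groups overlapped, and the spread within a group exceeded the difference between groups (log2 0.10 and 0.04, SE 0.188 each). In pLKO the call of Tars2 was lost without replicate 2 of untreated cells, and that of Rars2 without either untreated library or replicate 2 of treated cells.

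Cap recognition held the largest change of all 98 genes. Eif4e3 encodes a divergent member of the cap-binding eIF4E family (chr6:99625135-99666771, minus strand). It was at 26.7 and 27.8 CPM in untreated pLKO cells and at 86.4 and 84.9 with IFN-γ, and at 30.3 and 28.7 against 95.3 and 96.0 in shDRG2 cells. The treated libraries stood about as close to each other as the untreated ones, far from overlap. The fold was 3.14 in pLKO and 3.24 in shDRG2 (log2 1.65 and 1.69, SE 0.0739 and 0.0738, adjusted p = 6.68e-08 and 4.97e-08). Of its exon bases 14.8% are shared with Gm20696 on the same strand, a gene counted at 0.275 to 1.82 CPM. Gm20696 also rose with IFN-γ, by log2 2.48 in pLKO and 1.42 in shDRG2 (edgeR, adjusted p = 0.000507 and 0.00784). Eif4e3 had fractional estimated counts in all 8 libraries, so its reads may have been divided with another gene. Eif4e, the canonical cap-binding protein, had log2 fold changes of −0.17 and −0.06 (adjusted p = 0.200 and 0.666) and Eif4e2, the 4EHP repressor, 0.05 and 0.08. Per exon base, Eif4e3 thereby made up 19.3% and 21.7% of the eIF4E family's counts in untreated pLKO libraries and 45.6% and 45.9% in treated ones. In shDRG2 cells its share was 22.8% and 22.2% without and 48.5% and 48.3% with IFN-γ. In treated libraries of both lines that share was larger than that of Eif4e, at 26.4% to 27.8%. This order depends on the division by all annotated exon bases, 2515 for Eif4e3 and 6008 for Eif4e. Before that division Eif4e had more counts than Eif4e3 in every library.

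The 4E-BP inhibitors were unequal. Eif4ebp2 was at 96.9 and 90.1 CPM in untreated pLKO cells against 61.9 and 47.3 with IFN-γ, and at 89.2 and 82.3 against 56.3 and 49.4 in shDRG2 cells. The groups did not overlap, and the fall was 1.72-fold and 1.62-fold (log2 −0.78 and −0.70, SE 0.122 each, adjusted p = 0.000881 and 0.00149). Eif4ebp1, the inhibitor best known as an mTORC1 substrate, was at 117 and 118 against 138 and 131 CPM in pLKO and at 150 and 122 against 181 and 152 in shDRG2. It passed in neither (edgeR, adjusted p = 0.218 and 0.0693), although DESeq2, no filter and the replicate block each called it higher in shDRG2. The share of Eif4ebp2 in the family's counts per exon base fell from 23.9% and 22.5% to 14.5% and 12.05% in pLKO libraries and from 18.5% and 20.3% to 10.6% and 10.9% in shDRG2 libraries. Among the scaffolds, Eif4g3 fell by 0.33 and 0.32 on the log2 scale (adjusted p = 0.011 and 0.0114), calls that were lost without replicate 2 of the untreated cells of the same line. The main scaffold gene Eif4g1 had −0.23 and −0.26 without passing (adjusted p = 0.0946 and 0.057), although it was called lower in 5 alternative analyses in pLKO and 7 in shDRG2, DESeq2 among them in both. Eif4a1, the main helicase, had 0.09 and 0.27 (edgeR, adjusted p = 0.598 and 0.0808). It was called higher in shDRG2 by DESeq2, with no filter, with the replicate block and with 2 groups only.

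**Figure D4:**
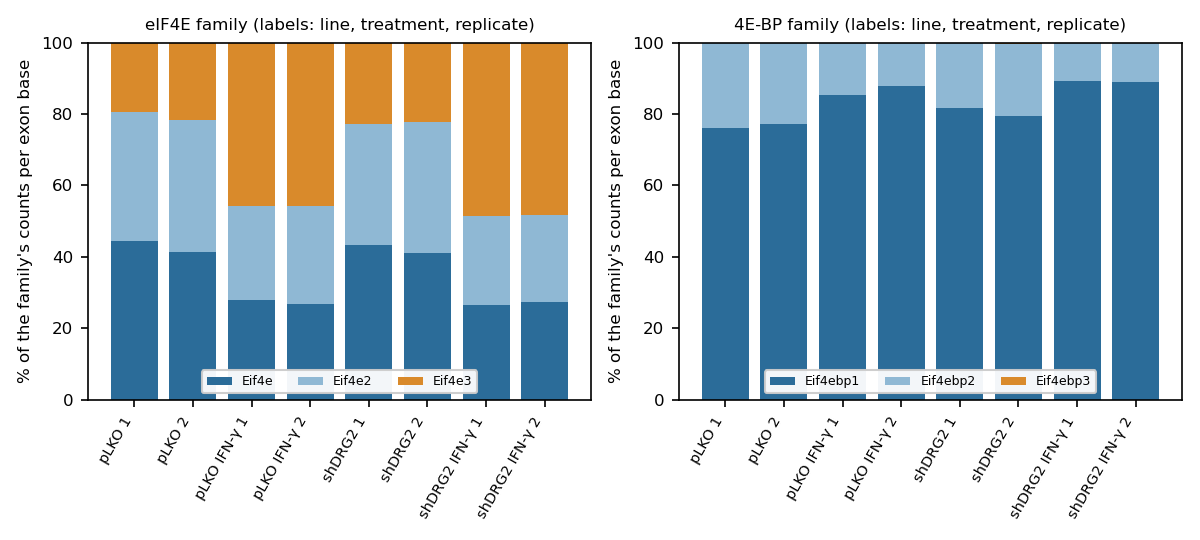
Share of each gene in the counts per exon base of the eIF4E family (left) and the 4E-BP family (right), 1 bar per library, with replicate numbers under the bars. Eif4e3 goes from 19.3% to 22.8% without IFN-γ to 45.6% to 48.5% with it, and Eif4ebp2 from 18.5% to 23.9% down to 10.6% to 14.5%, while Eif4ebp3 stays under 0.445%.

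By symbol, 6 genes were grouped as start-site factors: Eif1, Eif1a, Eif1ad, Eif1ax, Eif1b and Eif5. Of these, 2 fell in pLKO cells, and 4 fell and 1 rose in shDRG2 cells. Eif5, which encodes the GTPase activator of eIF2, was at 623 and 529 CPM against 470 and 426 in pLKO and at 578 and 526 against 447 and 409 in shDRG2, 1.29-fold lower in each (adjusted p = 0.0224 and 0.0194). Eif1b, a close relative of Eif1, was at 34.4 and 40.1 against 24.2 and 27.6 CPM in pLKO and at 37.8 and 38.9 against 22.0 and 26.2 in shDRG2 (1.44-fold and 1.59-fold lower, adjusted p = 0.00668 and 0.0013). Untreated and treated libraries of both genes were separate, and 12.7% of the exon bases of Eif1b overlap D830035M03Rik on the opposite strand. Eif1, the main start-codon fidelity factor, passed in shDRG2 (log2 −0.36, adjusted p = 0.0119) and not in pLKO (−0.24, adjusted p = 0.0774). The 2 genes for eIF1A went opposite ways in shDRG2 cells: Eif1a rose by 0.35 (adjusted p = 0.00568) and Eif1ax fell by 0.25 (adjusted p = 0.0215). In pLKO they had 0.20 and −0.19, neither passing. Eif1ax made up 41.5% to 45.8% of the pair's counts per exon base without and 34.4% to 35.8% with IFN-γ. The pLKO call of Eif1b was lost without replicate 2 of untreated cells and that of Eif5 without replicate 1, and the shDRG2 calls of Eif1, Eif1ax and Eif5 were lost without replicate 2 of treated cells.

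The core of ternary complex formation and the eIF3 scaffold moved little. Of 10 genes for eIF2, its exchange factor eIF2B and 2 factors that deliver tRNA without eIF2, Eif2b2 alone rose in pLKO (0.28, adjusted p = 0.0168; 0.18 in shDRG2) and Eif2a alone in shDRG2 (0.24, adjusted p = 0.0342; 0.20 in pLKO). Eif2s1, which encodes eIF2α itself, had 0.12 and 0.16, and Eif2b5, the catalytic eIF2B subunit, −0.03 in each line; none of these 4 values passed. Among 14 eIF3 genes, Eif3k rose by 0.40 and 0.24 (adjusted p = 0.00187 and 0.0225) and Eif3e by 0.29 and 0.28 (adjusted p = 0.0126 and 0.0145). The other 12, among them Eif3a with −0.03 and −0.08, passed in neither line. The pLKO calls of Eif2b2 and Eif3e were lost without replicate 2 of untreated cells, and the shDRG2 calls of Eif2a, Eif3e and Eif3k without replicate 1 of treated cells.

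Late initiation, elongation and termination gave few calls. Eif5a2, the less abundant eIF5A gene, was at 29.8 and 26.5 CPM against 18.2 and 17.3 in pLKO and at 24.7 and 22.1 against 14.6 and 15.5 in shDRG2 (1.58-fold and 1.56-fold lower, adjusted p = 0.000824 and 0.001). Eef2k, which encodes the kinase that inactivates eEF2, was at 57.4 and 62.1 against 36.7 and 38.6 CPM in pLKO and at 67.0 and 60.9 against 44.4 and 42.8 in shDRG2 (1.59-fold and 1.47-fold lower, adjusted p = 0.000192 and 0.000557). Neither gene had overlapping groups. Its substrate gene Eef2 had −0.13 and −0.14, Eef1a1 −0.04 and −0.08 and Eif5a 0.01 and 0.10 on the log2 scale, none passing. Eef2kmt, the eEF2 lysine methyltransferase gene, passed in shDRG2 only (0.31, adjusted p = 0.0379), with 17.6% of its exon bases shared with Alg1, and that call was lost in 10 alternatives, among them DESeq2 and the omission of any shDRG2 library. Eif5b, the subunit-joining GTPase gene, and Eif6, which keeps large subunits apart from small ones, had 0.27 and 0.21 in pLKO and 0.03 and 0.16 in shDRG2. Neither passed in the main fit. The replicate block called Eif5b higher in pLKO, as did no filter, and Eif6 higher in both lines. The pLKO value of Eif5b ran from 0.05 to 0.47 over the alternatives. Of its exon bases 16.8% overlap Rev1 on the opposite strand, which had log2 fold changes of −0.30 and −0.24. None of the 5 termination and rescue genes passed: Etf1 and Gspt1 (the release factors), Abce1 (ribosome recycling), Pelo and Hbs1l (rescue of stalled ribosomes) lay between −0.18 and 0.08 in both lines. The non-coding Eif2c5 was at 6.36 and 5.51 against 4.0 and 4.39 CPM in pLKO and at 6.34 and 5.5 against 3.80 and 3.56 in shDRG2 (log2 −0.50 and −0.69, adjusted p = 0.0462 and 0.00965), and the pLKO call was lost in 11 of the alternative analyses.

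**Figure D5:**
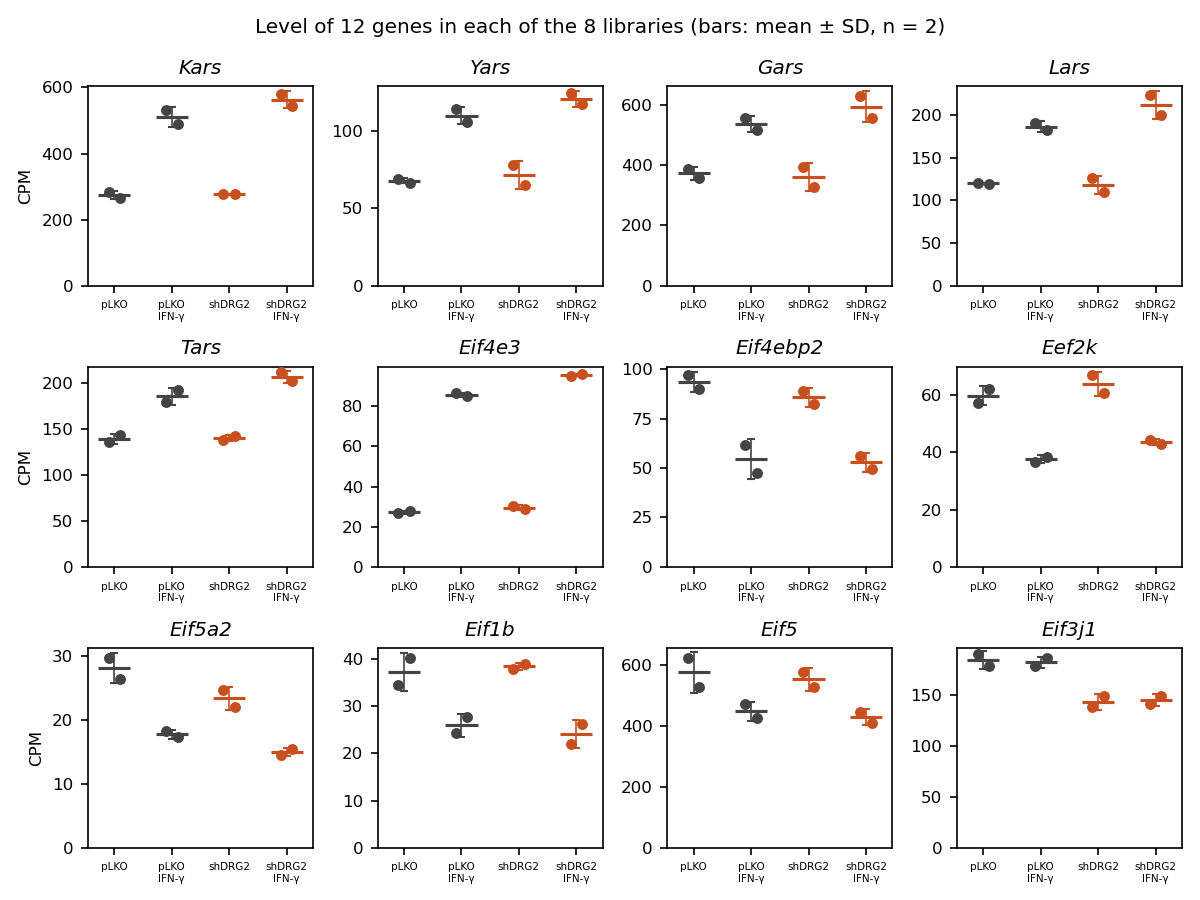
CPM of 12 genes in each of the 8 libraries, 1 panel per gene with an axis from 0, points for libraries, and a line with bars for the group mean ± SD (n = 2). In the genes that rose or fell with IFN-γ the treated points of both lines stand apart from the untreated ones, while in Eif3j1 the points divide by line, 178 to 190 in pLKO and 137 to 149 in shDRG2.

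Differences between shDRG2 and pLKO cells were small for these transcripts. Without IFN-γ, 0 of 98 passed the test against 1.20% of all genes (0.467% higher and 0.733% lower), and with IFN-γ 0 of 98 against 1.67% (0.504% higher and 1.17% lower; edgeR, adjusted p under 0.05). At an unadjusted p under 0.05 there were 4 and 10 genes, against 12.8% and 12% of all genes, and DESeq2 called 1 gene in each. Over all alternatives the count was 0 or 1 without and 0 to 4 with IFN-γ. Median log2 fold changes of the set were −0.00 and 0.03, against 0.01 and 0.00 over all genes. The 95% intervals lay within 1.5-fold of no change for 96 and 97 of the 98 genes, and within 2-fold for all 98 in both. The exceptions at 1.5-fold were Eif3j2 and Lars2 without and Fars2 with IFN-γ.

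The gene nearest to a call was Eif3j1, which encodes a loosely attached eIF3 subunit that acts at the mRNA entry channel (chr2:122028546-122056598, plus strand). It was at 190 and 178 CPM in untreated pLKO cells and 178 and 186 with IFN-γ, and at 137 and 148 in untreated shDRG2 cells and 141 and 149 with IFN-γ. All 4 shDRG2 libraries were below all 4 pLKO libraries. The log2 differences were −0.37 (SE 0.0778, adjusted p = 0.0556) without and −0.33 (SE 0.0778, adjusted p = 0.0731) with IFN-γ in edgeR, and DESeq2 gave adjusted p = 0.00471 and 0.0204. Over the alternatives its adjusted p ran from 0.00471 to 0.379 without and from 0.0162 to 0.462 with IFN-γ. Its near copy Eif3j2 was at 8.56 to 9.98 CPM in shDRG2 against 11.1 to 12.9 in pLKO libraries (log2 −0.40 and −0.31, adjusted p = 0.151 and 0.278). Both genes had fractional estimated counts in all 8 libraries, so reads may have been divided between them. Of the exon bases of Eif3j1 19.0% overlap Spg11 on the opposite strand, which had log2 differences of 0.07 and 0.08.

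The other genes under an unadjusted p of 0.05 were Eif5a2 and Eif4g1, lower in shDRG2 in both conditions, and Dars, Aars, Eif4ebp1, Cars, Eef2k and Eif4e3, higher in shDRG2 with IFN-γ. Eif4g1 was at 1580 and 1415 CPM in untreated pLKO and 1278 and 1280 in untreated shDRG2 cells, and at 1365 and 1183 against 1098 and 1031 with IFN-γ. The untreated groups did not overlap, nor did the treated ones (log2 −0.23 and −0.26, adjusted p = 0.336 and 0.276). With IFN-γ, 17 of the 19 cytosolic synthetases had positive differences, with a median of 0.14, and none passed (0 to 2 over the alternatives). Their count of positive values ran from 14 to 19 over the alternatives and their median from 0.05, without replicate 1 of IFN-γ-treated shDRG2 cells, to 0.19. Of all genes tested 50.9% had positive differences with IFN-γ.

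The response to IFN-γ did not differ detectably between the lines for any of the 98 genes. The interaction contrast, the response of shDRG2 minus that of pLKO cells, called 0 of 98 against 0.00741% of all genes (1 of 13500), with 0 at an unadjusted p under 0.05 against 2.38% of all genes and 0 by DESeq2. The differences ran from −0.24 for Eif5b to 0.26 for Ears2, the mitochondrial glutamyl-tRNA synthetase gene. Their 95% intervals lay within 1.5-fold for 90 of the 98 and within 2-fold for all 98. Genes called in 1 line only, such as Farsa, Farsb, Eif1 and Eif1a, were therefore not shown to respond differently. Cytosolic synthetases had a median difference of 0.11, with 16 of 19 positive, against 47.5% of all genes tested. That median ran from 0.06, without replicate 1 of IFN-γ-treated shDRG2 cells, to 0.16 over the alternatives.

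Partner genes outside the set were taken by list, to be read against the 15.4% of all genes that rose and 12.7% that fell in pLKO and the 16.2% and 15.2% in shDRG2. Of 11 genes of the eIF2α kinases and phosphatase, 2 rose and 2 fell in pLKO, and 2 rose and 3 fell in shDRG2. The double-stranded-RNA-activated kinase gene Eif2ak2, a known interferon-stimulated gene, went from 59.2 and 60.9 to 196 and 224 CPM in pLKO and from 53.3 and 51.5 to 207 and 186 in shDRG2 (log2 1.81 and 1.91, adjusted p = 1.58e-07 and 1.01e-07). Impact, a Gcn2 inhibitor gene, rose by 0.32 and 0.56, whereas the ER-stress kinase gene Eif2ak3 fell by 0.27 and 0.33. Of 29 ATF4 targets, 10 rose and 3 fell in pLKO and 16 rose and 0 fell in shDRG2. The 4 with the smallest p-values were Atf3 at 2.59 and 3.20, Nupr1 at 2.12 and 2.19, Cebpb at 1.43 and 1.54 and Slc6a9 at 1.36 and 1.52. The 3 that fell in pLKO were Slc7a5 (−0.56), Cth (−0.46) and Slc7a1 (−0.33). The list includes Atf4 itself, which had 0.13 and 0.28 and was called in shDRG2 only. Without replicate 1 of untreated pLKO cells 6 rose and 0 fell in pLKO, and without replicate 1 of treated shDRG2 cells 9 rose in shDRG2. With no filter the rises were 14 and 20. None of the 29 passed the interaction contrast, in which all 29 were positive (22 to 29 over the alternatives) with a median of 0.18 (0.06 to 0.29). Over all genes tested 47.5% were positive. The 29 genes come from the same 8 libraries, so their signs are not independent.

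Of 18 genes for poly(A) binding and the mTORC1 arm, 6 rose and 3 fell in pLKO and 5 rose and 2 fell in shDRG2. The eIF4E kinase genes moved apart: Mknk1 rose by 0.84 and 0.94 and Mknk2 fell by 1.12 and 1.40 on the log2 scale. Pdcd4, an inhibitor of eIF4A, rose by 0.88 and 0.81, and the poly(A)-binding protein gene Pabpc4 fell by 0.84 and 0.71. Of 6 multisynthetase and GAIT partners, Wars, for tryptophan and a known IFN-γ-induced gene, rose in both lines, from 120 and 106 to 359 and 293 CPM in pLKO and from 120 and 98.7 to 382 and 334 in shDRG2 (log2 1.53 and 1.71, adjusted p = 1.16e-05 and 4.35e-06). That rise was larger than the rise of any synthetase in the set, where Kars was highest at 0.89 and 1.02. The only other call in that list was Syncrip, lower in shDRG2 (−0.26, adjusted p = 0.0284).

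Mitochondrial translation factors gave 1 rise of 13 in either line, Mtrf1 in pLKO (0.54) and Gfm2 in shDRG2 (0.33). Of 14 genes for hypusine, diphthamide and selenocysteine, 1 rose and 2 fell in pLKO, and 3 rose and 2 fell in shDRG2. The selenocysteine elongation factor gene Eefsec fell by 0.49 and 0.63 and Dph3 by 0.31 and 0.56. Of 13 further termination and quality-control genes, 1 rose and 2 fell in pLKO and 2 rose and 1 fell in shDRG2, with Gtpbp2, which helps rescue stalled ribosomes, at 0.89 and 0.90 and the helicase gene Upf1 at −0.29 and −0.26. In the main fit Drg2 was the only gene of these 8 lists to pass in the knockdown comparisons. Its relative Drg1 and their partners Zc3h15 and Rwdd1 did not pass in any of the 5 comparisons. With IFN-γ, 27 of the 29 ATF4 targets were higher in shDRG2, against 50.9% of all genes, with a median of 0.24 (0.12 to 0.34 over the alternatives). DESeq2 called 2 of them higher, the replicate block 2 and no filter 7, against 2.41%, 5% and 3.04% of all genes in either direction. Without IFN-γ, no filter called 2 higher and 2 lower.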

How the data were processed

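The deposited table holds estimated counts per gene, as the authors made them; STAR, Salmon 1.5.2 and the mm10 build are named in the submitters' processing notes, and the settings and annotation behind them are not known here. Of its 45583 rows, 27 carry dates in place of gene names (0.204% to 0.212% of a library's counts) and were left out. Counts were rounded to whole numbers. Gene names were matched to GENCODE M21 (GRCm38) for 91.8% of genes and for all 102 members, which gave exon lengths, coordinates and overlaps. Whether counting used strand is not known here.

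All 8 libraries entered 1 edgeR 4.0.16 quasi-likelihood fit (R 4.3.3, limma 3.58.1) with 1 coefficient per group, trimmed-mean normalisation (factors 0.973 to 1.04) and edgeR's expression filter. The common biological coefficient of variation was 8.49%, with 4 residual degrees of freedom. P-values were 2-sided and adjusted by Benjamini-Hochberg over 13500 genes, with a threshold of 0.05. The script was tested on simulated data. Alternatives were other scalings, no filter, DESeq2 1.42.0, a replicate block, 2 groups only, and each library left out in turn.

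Named with values were the 12 largest rises and falls among called members in a comparison with over 24 calls. The 10 highest per kilobase, fixed members of each role and up to 4 genes per partner list were named too. Other called members and the genes nearest a call in the knockdown were named after their values were seen. So were Slc7a5, Cth, Slc7a1 and Atf4 of the ATF4 list, beyond its limit of 4. Members, lists and motifs were chosen with earlier results of these data known; 1 marker and 1 motif are not reported here.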

Additional observations from a re-analysis of the deposited data

How the results depend on the processing

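Every called change kept its direction under all alternatives. In pLKO, 12 of 25 calls held in all of them (Eef2k, Eif3k, Eif4e3, Eif4ebp2, Eif5a2, Gars, Kars, Lars, Qars, Rars, Tars and Yars), and in shDRG2 17 of 32 (Cars, Dars, Eef2k, Eif1a, Eif1b, Eif4e3, Eif4ebp2, Eif5a2, Eprs, Gars, Kars, Lars, Rars, Rars2, Tars, Tars2 and Yars). Leaving out 1 library gave 14 to 25 calls in pLKO and 19 to 33 in shDRG2. For the knockdown without IFN-γ, 1 member (Eif3j1) was called by DESeq2, with the replicate block and with no filter. With IFN-γ there were 3 with no filter (Cars, Eif3j1 and Eif4ebp1), 1 with DESeq2 (Eif3j1) and 4 with the block (Aars, Dars, Eif3j1 and Eif4ebp1). The interaction contrast gave 0 throughout.

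Same-numbered libraries deviated together weakly (correlations 0.107 to 0.274 over 13500 genes), and no label says that they were paired. With the replicate block, 36 of the 98 members passed in pLKO and 45 in shDRG2. The block also raised the share of all genes called, to 38.3% and 41.7%.

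Over all genes, calls in the knockdown without IFN-γ went from 162 to 678 with no filter, 312 with DESeq2 and 673 with the block, and to between 27 and 103 in 5 of the single-library omissions. With IFN-γ they went from 226 to 653, 675 with the block, 124 with 2 groups only, and 44 to 123 in 4 single-library omissions. The IFN-γ calls went from 3796 to 2482 in pLKO without replicate 1 of untreated cells and from 4233 to 2720 in shDRG2 without replicate 1 of treated cells, and interaction calls from 1 to 58 with no filter, 9 with DESeq2 and 2 with the block. The cause of these shifts was not tested.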

Other observations

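The 4 members that failed the filter were barely detected. Eef1a2, the eEF1A gene of muscle and neurons, had 9, 4, 1, 2, 8, 9, 0 and 1 counts in the libraries ordered pLKO untreated, pLKO with IFN-γ, shDRG2 untreated and shDRG2 with IFN-γ. The Y-linked Eif2s3y had at most 3 counts and Eif4ebp3 at most 6, and Eif4e1b had 1 count in 1 library. The set as a whole was higher in replicate 1 than in replicate 2, with median log2 differences of 0.10, 0.09, 0.08 and 0.02 in the 4 groups, in the same order, against −0.00, −0.00, 0.02 and 0.00 over all genes tested.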
